A study of Homo sapiens with 6 samples.

Results

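Ephrins, Eph receptors, semaphorins, plexins and neuropilins are ligands and receptors that steer growing axons and also position cells in blood vessels, immune tissue and epithelia. A list of 50 such genes was drawn up by name, with earlier results of these data known. Of these, 48 were found through their platform gene symbols among the 21448 transcript clusters of the Human Clariom S array. Each was on a single transcript cluster. EPHB2 and SEMA3B were not analysed here. The 48 genes comprised 8 ephrins, 10 Eph receptors, 19 semaphorins, 9 plexins and 2 neuropilins.

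The arrays compared MDA-MB-231-hOSM with MDA-MB-231-hC, both derived from the human triple-negative breast cancer line MDA-MB-231 by stable transfection with 2 μg of plasmid. MDA-MB-231-hOSM carried pUNO1-hOSM, which expresses human oncostatin M (OSM), and MDA-MB-231-hC carried the empty pUNO1 vector. Both lines were kept in 10 μg/mL blasticidin and were grown at the same time, with RNA taken at 3 separate passages. Each group has n = 3 arrays, numbered as sets 1 to 3 in both lines. The labels do not say that a set is a passage, which is assumed here. The sources used here state neither how many clones each line holds nor more than 1 transfection per vector, so p-values measure the spread between sets only, and differences that arose at transfection or selection cannot be told apart from those due to OSM.

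OSM itself had log2 signals of 14.90, 14.82 and 14.69 in MDA-MB-231-hOSM, against 5.06, 5.11 and 5.26 in MDA-MB-231-hC. Of 4 luminal breast markers, the hormone receptor genes ESR1 (4.40 in hOSM and 4.48 in hC) and PGR (3.57 in hOSM and 3.44 in hC) and FOXA1 (5.51 in hOSM and 5.44 in hC) lay below the background guide described next. GATA3 lay above it, with 6.78 in hOSM and 7.39 in hC (limma adjusted p = 0.0274), and VIM, the mesenchymal intermediate filament gene, averaged 16.36 in hOSM and 16.30 in hC. The 95th percentile of 348 olfactory receptor genes, 5.78, was used as a rough guide to background, since the table holds no detection calls. In every set the deviations of the hOSM and the hC array from their group means were near mirror images (Pearson's r from −0.995 to −0.992 across transcript clusters, which are not independent), so an array that is high for its line has a partner that is low, and the SDs of both lines carry the same information. The mean of both arrays of a set hardly varied over sets (median SD 0.0076), whereas the hOSM minus hC difference did (median SD 0.225). The sources used here do not give the reason. The printed SDs, the tightness of a group and nonoverlap may therefore leave out spread that both lines shared. Fold changes are differences of mean log2 signals, hOSM minus hC, and a gene was called at an adjusted p under 0.1 (limma with the set as a block, Benjamini-Hochberg over all transcript clusters) together with a change of over 2-fold.

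As background, ephrins are membrane-bound ligands of the Eph receptor tyrosine kinases, so they signal at contacts between neighboring cells, with ephrin-A proteins held by a lipid anchor and ephrin-B proteins spanning the membrane. Semaphorins signal mainly through plexins. Secreted class 3 semaphorins usually need a neuropilin to bind the ligand beside a plexin-A, and neuropilins also serve as coreceptors for vascular endothelial growth factors. In carcinomas these genes have been studied for their roles in cell repulsion, migration and vessel growth.

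Of the 48 members, 7 (14.6%) were called, 4 with higher and 3 with lower signals in the hOSM line. Over the whole array 888 transcript clusters (4.14%) were called, 2.60% higher and 1.54% lower. Since the members were listed with earlier results of these data known, their larger share is not that of an independently chosen family. The 4 that rose were the semaphorins SEMA4B, SEMA6B and SEMA3E and the coreceptor NRP2. The 3 that fell were the receptors EPHA5 and PLXNA1 and the secreted semaphorin SEMA3A. By the adjusted p alone, 15 members (31.2%) passed, against 19.7% of all transcript clusters, with 9 higher (9.22% on the array) and 6 lower (10.4% on the array). The arrays of both lines did not overlap for 25 of the 48 members (52.1%), close to the 50.0% of all transcript clusters, so nonoverlap alone says little about these genes. The median log2 fold change was 0.03 over the members and −0.03 over the array. For 21 of the 48 members the means of both lines lay below the background guide, and a change there cannot be judged well.

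**Figure D1:**
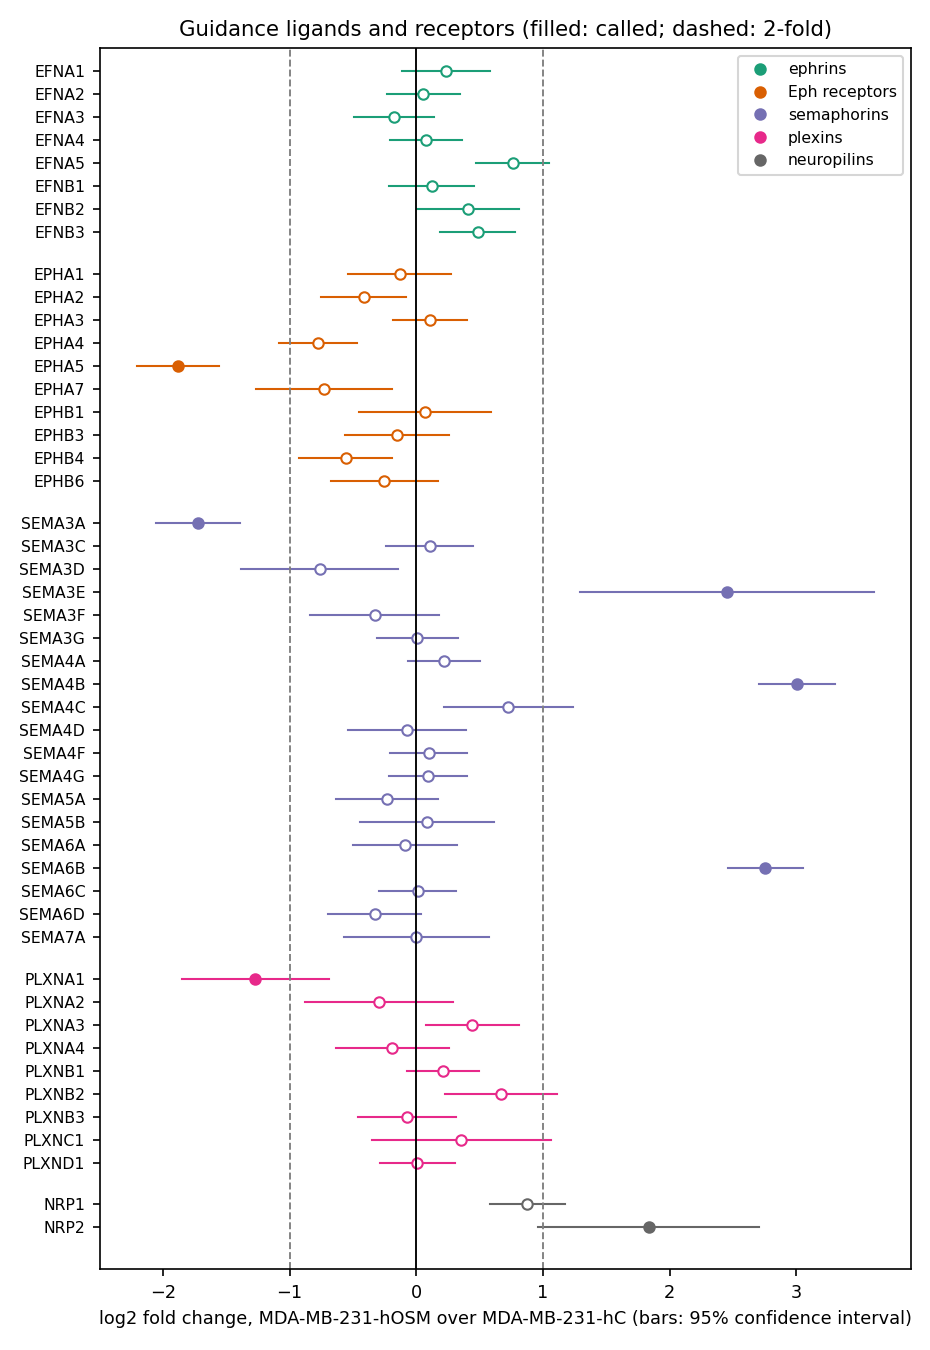
Log2 fold change of each of the 48 measured genes, hOSM over hC, on the horizontal axis, grouped by family. Points are means over 3 sets, bars are 95% confidence intervals from limma with the set as a block, filled points are called genes and dashed lines mark 2-fold. The 7 filled points run from EPHA5 at −1.88 to SEMA4B at 3.01, while most members lie close to 0.

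The largest change among the members was in SEMA4B, a membrane-bound class 4 semaphorin. It had log2 signals of 10.64, 10.68 and 10.75 in sets 1, 2 and 3 of MDA-MB-231-hOSM, against 7.72, 7.74 and 7.59 in MDA-MB-231-hC. All 3 hOSM arrays lay well above all 3 hC arrays, and the differences within sets were alike, from 2.92 to 3.16. SEMA4B thus rose 8.04-fold (log2 fold change 3.01 ± 0.12 SE, limma adjusted p = 0.000149). SEMA6B, a transmembrane semaphorin that binds class A plexins, showed the same tight pattern, with 9.98, 9.86 and 9.94 in hOSM and 7.12, 7.24 and 7.15 in hC. It rose 6.76-fold (log2 fold change 2.76 ± 0.12 SE, limma adjusted p = 0.000185). Neither depended on 1 set, since the log2 fold change stayed between 2.93 and 3.05 for SEMA4B and between 2.71 and 2.83 for SEMA6B whichever set was left out.

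SEMA3A and SEMA3E, both secreted class 3 semaphorins, went in opposite directions. SEMA3A, the prototype repellent that acts through NRP1 and plexin-A receptors, had log2 signals of 11.34, 11.11 and 11.18 in hOSM, against 12.82, 13.01 and 12.97 in hC. The groups were far apart in every set, and SEMA3A fell by 1.72 in log2 signal (SE 0.14, limma adjusted p = 0.00117), a 3.30-fold decrease. SEMA3E, which can bind plexin-D1 without a neuropilin, had log2 signals of 10.74, 9.52 and 9.57 in hOSM, against 6.62, 7.93 and 7.92 in hC. The groups did not overlap, but set 1 stood apart, with a difference of 4.12, against 1.59 in set 2 and 1.65 in set 3. SEMA3E rose 5.48-fold (log2 fold change 2.45 ± 0.48 SE, limma adjusted p = 0.0263). Its log2 fold change was 1.62 (limma adjusted p = 0.0236) without set 1. It was larger without set 2 (2.89) and without set 3 (2.86), but the limma adjusted p of 0.130 and 0.155 did not pass. Each of these fits leaves 1 residual degree of freedom, and those without set 2 or set 3 keep set 1 beside a set with a much smaller difference.

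**Figure D2:**
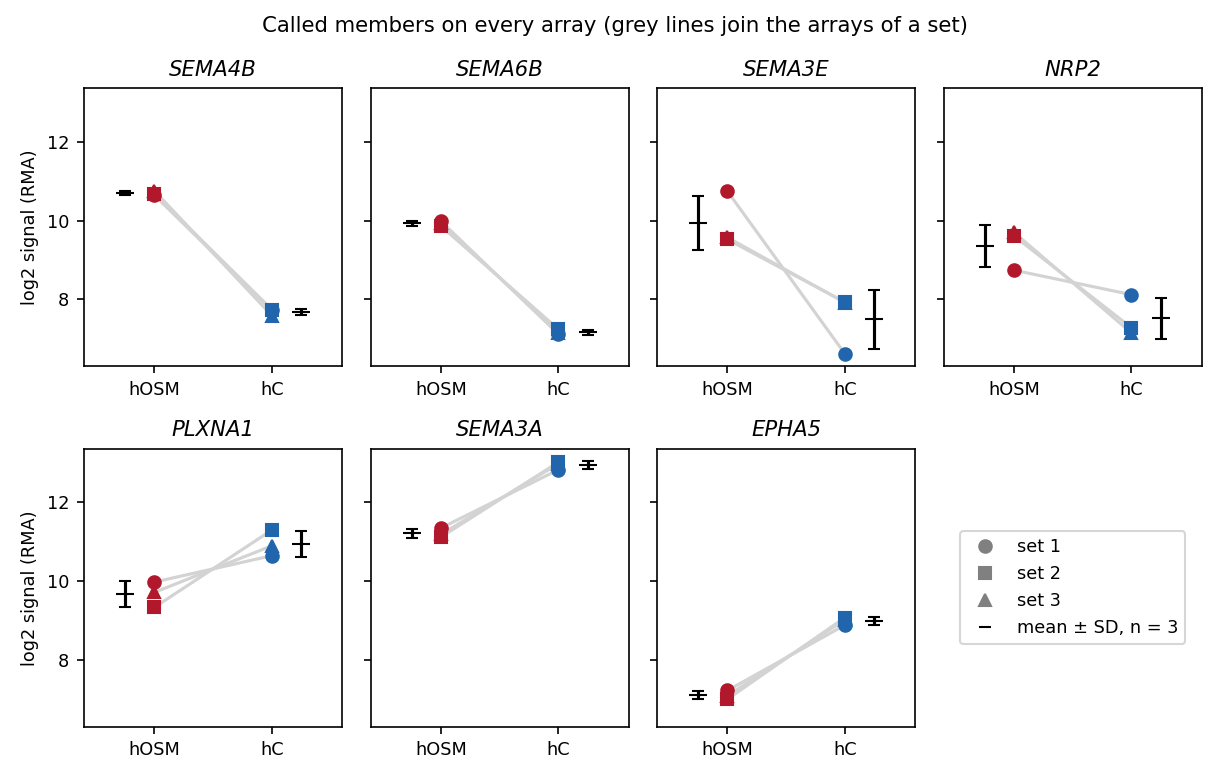
Log2 signal (vertical axis) of the 7 called genes on every array, with hOSM on the left and hC on the right of each panel. Symbols mark the set, grey lines join the arrays of a set, and black bars give the mean ± SD of 3 arrays; each panel is to be read on its own, since signals of different genes are not on a shared scale of abundance. SEMA4B, SEMA6B, SEMA3A and EPHA5 show tight groups, while SEMA3E, NRP2 and PLXNA1 vary between sets.

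Of the 19 semaphorins 4 (21.1%) were called, against 4.14% of all transcript clusters, and the other semaphorins moved less. SEMA4C, a class 4 semaphorin that binds plexin-B2, had log2 signals of 7.22, 6.81 and 7.31 in hOSM and 6.28, 6.70 and 6.18 in hC. It was 1.65-fold higher in hOSM, with an adjusted p of 0.0765 from limma but under the fold limit, and its difference was only 0.11 in set 2. The remaining 14 semaphorins did not pass the adjusted p, with log2 fold changes from −0.76 (SEMA3D, limma adjusted p = 0.109) to 0.22 (SEMA4A). SEMA3D had 6.22, 5.59 and 5.69 in hOSM and 6.18, 6.87 and 6.74 in hC, with a difference of 0.04 in set 1 and of −1.28 and −1.05 in sets 2 and 3, and without set 1 it was called. SEMA3C, another secreted class 3 semaphorin, averaged 12.03 in hOSM and 11.93 in hC and had a log2 fold change of 0.11 (95% CI −0.24 to 0.45). SEMA7A, the lipid-anchored semaphorin, averaged 11.60 in both lines, and its 95% CI of −0.57 to 0.57 leaves room for changes of modest size in either direction. SEMA4D, known from lymphocytes and from tumor vessels, had a log2 fold change of −0.07 (95% CI −0.54 to 0.39). SEMA4F and SEMA6A also lay above the guide, with log2 fold changes of 0.10 and −0.09, and SEMA6D crossed it, with 5.54 in hOSM and 5.87 in hC. SEMA3F, SEMA3G, SEMA4A, SEMA4G, SEMA5A, SEMA5B and SEMA6C lay below the guide in both lines.

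The genes of SEMA3A, SEMA3C, SEMA3D and SEMA3E lie near each other on chromosome 7, a feature that the choice of genes did not use. In RefSeq gene order, SEMA3E and SEMA3A are direct neighbors among measured protein-coding genes, and SEMA3D follows SEMA3A. From SEMA3C to GRM3 there were 8 measured genes, of which SEMA3E and CACNA2D1 rose and SEMA3A fell. CACNA2D1, a calcium channel subunit, had a log2 fold change of 2.60 (SE 0.16, limma adjusted p = 0.000548), and PCLO, which lies between CACNA2D1 and SEMA3E, had −0.39 (limma adjusted p = 0.175). The increase of SEMA3E and the decrease of SEMA3A thus occurred in adjacent genes. Among the 6 nearest measured genes (3 on each side), SEMA6B had 0 called and SEMA4B, EPHA5, PLXNA1 and NRP2 had 1 each. SEMA3A and SEMA3E had 2 each, which were CACNA2D1 and each other. Of 38 distinct neighbors 7 were called, against 4.14% of the array, and 3 of the 38 were members themselves. The 7 include SEMA3A and SEMA3E, whose neighbors were looked at because these genes were called. The count of 7 is therefore not independent of that choice. The called neighbor changed in the same direction for SEMA4B (CIB1, 1.05), EPHA5 (ADGRL3, −1.19) and PLXNA1 (MCM2, −1.01). For NRP2 it changed in the other direction (PARD3B, −1.43). This look at neighbors was chosen after the values were seen.

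**Figure D3:**
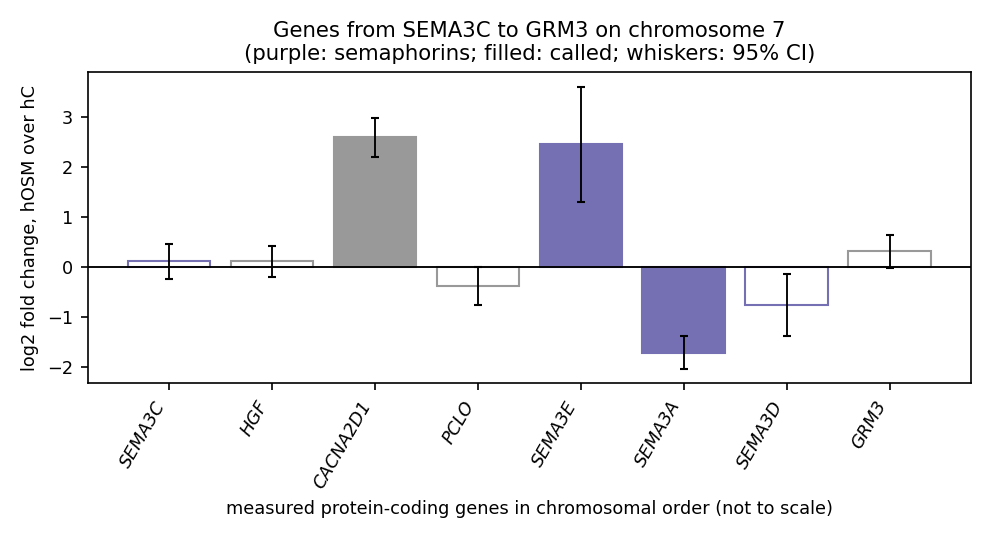
Log2 fold change, hOSM over hC (vertical axis), of the 8 measured protein-coding genes from SEMA3C to GRM3 in chromosomal order, not to scale. Whiskers are 95% confidence intervals, purple marks semaphorins and filled bars are called genes. SEMA3E at 2.45 and SEMA3A at −1.72 stand side by side.

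Plexins, the main semaphorin receptors, included 1 called gene of 9, against 4.14% of all transcript clusters. PLXNA1, which pairs with neuropilins as the signaling receptor for class 3 semaphorins, had log2 signals of 9.97, 9.33 and 9.71 in hOSM, against 10.64, 11.29 and 10.89 in hC. All hOSM arrays were below all hC arrays, with a difference of −0.67 in set 1, −1.96 in set 2 and −1.18 in set 3. PLXNA1 fell by 1.27 in log2 signal (SE 0.24, limma adjusted p = 0.0236), a 2.41-fold decrease. This call was lost without set 2 (−0.93, limma adjusted p = 0.118) and without set 3 (−1.31, adjusted p = 0.184). PLXNB2, the receptor of SEMA4C, was 1.59-fold higher in hOSM and under the fold limit (log2 fold change 0.67, limma adjusted p = 0.0649), with 9.46, 9.35 and 9.04 in hOSM and 8.43, 8.56 and 8.85 in hC. Here the groups did not overlap, but set 3 differed by only 0.19. The remaining 7 plexins did not pass, with log2 fold changes from −0.29 (PLXNA2) to 0.44 (PLXNA3, limma adjusted p = 0.116). PLXNA2 and PLXNA4, plexins known to bind SEMA6B, had log2 fold changes of −0.29 (95% CI −0.88 to 0.29) and −0.19 (95% CI −0.64 to 0.26), PLXNA4 below the guide in both lines. PLXND1, the receptor of SEMA3E, lay below the guide in both lines, with 5.65 in hOSM and 5.64 in hC (95% CI of the difference −0.29 to 0.30). PLXNC1, the receptor of SEMA7A, had set differences of 1.05, −0.57 and 0.59, and PLXNB3 and PLXNB1 had log2 fold changes of −0.07 and 0.21.

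Both neuropilins were higher in MDA-MB-231-hOSM by the adjusted p, as were 9.22% of all transcript clusters. NRP2, which binds class 3 semaphorins and VEGFC, had log2 signals of 8.74, 9.61 and 9.70 in hOSM, against 8.12, 7.28 and 7.15 in hC. The groups did not overlap, yet set 1 was again the odd one, with a difference of 0.62, against 2.33 in set 2 and 2.55 in set 3. NRP2 rose 3.56-fold (log2 fold change 1.83 ± 0.36 SE, limma adjusted p = 0.0266). Without set 1 the log2 fold change was 2.44, and the call was lost without set 2 (1.58, limma adjusted p = 0.193) and without set 3 (1.48, adjusted p = 0.209). The set that gave the largest difference for SEMA3E therefore gave the smallest for NRP2. NRP1, the coreceptor for SEMA3A and VEGFA, had 15.33, 15.25 and 15.37 in hOSM and 14.43, 14.51 and 14.38 in hC, with little spread between sets. It was 1.84-fold higher (log2 fold change 0.88 ± 0.12 SE, limma adjusted p = 0.00904) and stayed under the fold limit.

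**Figure D4:**
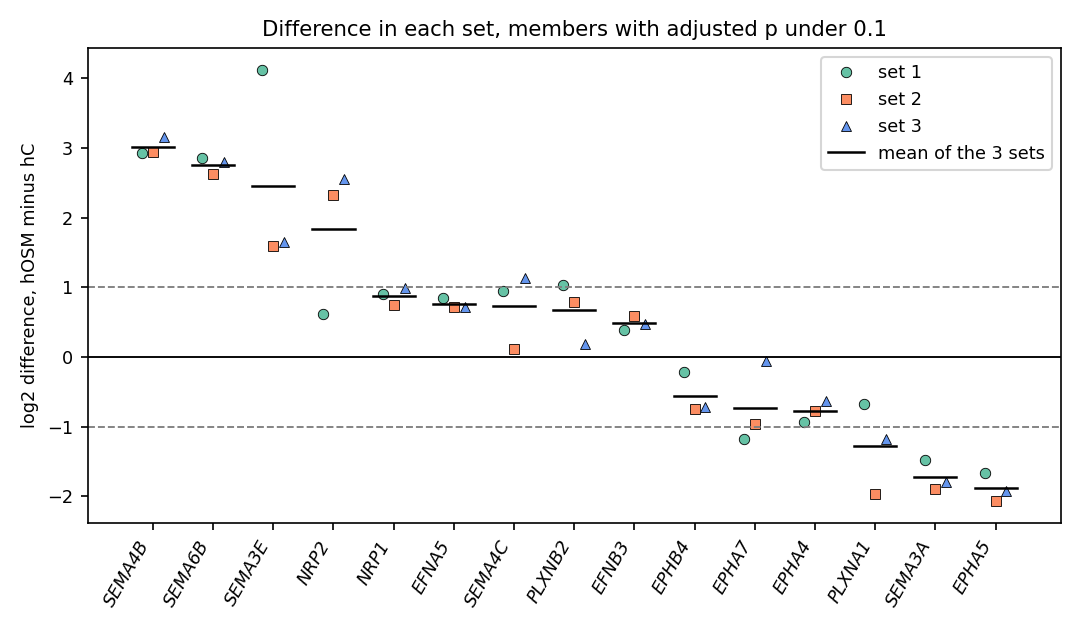
Log2 difference, hOSM minus hC (vertical axis), in each of the 3 sets for the 15 genes with an adjusted p under 0.1, ordered by their mean (black lines). Symbols mark the sets and dashed lines 2-fold. Sets agree closely for SEMA4B, SEMA6B, NRP1, EFNA5 and EPHA5, and set 1 stands apart for SEMA3E at 4.12 and NRP2 at 0.62.

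Among the Eph receptors, 1 of 10 was called, against 4.14% of all transcript clusters. EPHA5, a receptor best known from the nervous system, had log2 signals of 7.22, 7.00 and 7.09 in hOSM, against 8.88, 9.07 and 9.01 in hC. The groups were widely separated in all sets, and EPHA5 fell by 1.88 in log2 signal (SE 0.13, limma adjusted p = 0.000805), a 3.69-fold decrease that ranged from −2.00 to −1.79 when each set was left out. A further 3 Eph receptors passed the adjusted p without reaching 2-fold, and all 3 were lower in hOSM. EPHA4, which binds ephrins of both classes, had 7.85, 7.93 and 8.00 in hOSM and 8.78, 8.70 and 8.63 in hC (log2 fold change −0.78, limma adjusted p = 0.0146). EPHA7 had 6.70, 6.78 and 7.24 in hOSM and 7.87, 7.74 and 7.30 in hC, so that set 3 hardly differed (log2 fold change −0.73, limma adjusted p = 0.0877). EPHB4, the receptor of ephrin-B2 on veins, had 7.82, 7.55 and 7.55 in hOSM and 8.03, 8.29 and 8.27 in hC (log2 fold change −0.56, limma adjusted p = 0.0656). Thus 4 of 10 Eph receptors passed the adjusted p in the lower direction (10.4% of all transcript clusters) and 0 in the higher (9.22%), and the family had a median log2 fold change of −0.33.

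EPHA2, the Eph receptor most studied in breast cancer, did not pass. It had 10.84, 10.83 and 11.04 in hOSM and 11.38, 11.39 and 11.19 in hC, which do not overlap, with a log2 fold change of −0.42 (95% CI −0.75 to −0.08, limma adjusted p = 0.107). EPHA1, EPHA3, EPHB1, EPHB3 and EPHB6 lay below the guide in both lines, with log2 fold changes from −0.25 (EPHB6) to 0.11 (EPHA3).

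Of the 8 ephrins, limma called 0 at both thresholds, against 4.14% of all transcript clusters. At an unadjusted p under 0.05 there were 3 of the 8, against 6205 of all 21448 transcript clusters. Without the set in the model limma also called 0. EFNA5, a ligand of EPHA5 and other Eph receptors, had log2 signals of 13.35, 13.30 and 13.29 in hOSM and 12.51, 12.58 and 12.57 in hC. These values are tight and well separated, and EFNA5 was 1.69-fold higher (log2 fold change 0.76 ± 0.12 SE, limma adjusted p = 0.0129), short of 2-fold. EFNB3 was 1.40-fold higher by the adjusted p (0.0517 from limma), but its signals of 4.34, 4.44 and 4.40 in hOSM and 3.95, 3.85 and 3.93 in hC lie below the background guide. EFNB2, the ligand of EPHB4, had 11.28, 11.04 and 10.91 in hOSM and 10.47, 10.70 and 10.83 in hC. Its difference varied between sets (0.81, 0.34 and 0.08), and its log2 fold change of 0.41 did not pass (limma adjusted p = 0.167). EFNA1, EFNA2, EFNA3, EFNA4 and EFNB1 lay below the guide in both lines, with log2 fold changes from −0.17 (EFNA3) to 0.23 (EFNA1).

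Promoter sequences are shown for 3 of the called genes because OSM acts through STAT factors, which bind palindromic elements. RefSeq (GRCh38.p14) windows of 250 bases before to 50 after a gene's start were at hand for 43 of the 48 members and for 5 of the 7 called ones, and SEMA6B and SEMA3A are named only. The windows were searched for TTCNNNGAA, for its tighter form TTCCNGGAA, which is contained in it, and for the AP-1 type element TGANTCA. All 3 read the same on both strands. TTCNNNGAA was found in 4 of the 43 members, among them SEMA3E and EPHA5. That share is close to the 9.38% of 27305 genes with a window. TTCCNGGAA was found in 0 of the 43 members (1.44% of all genes) and TGANTCA in 1, PLXNC1 (9.37%). Of the 5 called genes with a window, 2 held TTCNNNGAA and 0 held either of the others. These 2 changed in opposite directions, SEMA3E higher and EPHA5 lower, while SEMA4B, NRP2 and PLXNA1 held no match. Genes with several windows have more chances of a match, and whether any match is used was not tested.

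The 250 bases before the start of SEMA3E (chr7:83649140-83649389, minus strand), of EPHA5 (chr4:65670490-65670739, minus strand) and of SEMA4B (chr15:90184670-90184919, plus strand, the most upstream of 3 windows) read as follows (SEMA3E and EPHA5 each have 2 windows, of which the one with the match is shown), 5′ to 3′, with TTCNNNGAA matches in capitals. The match in SEMA3E begins 27 bases before the start and that in EPHA5 143 bases before it, and SEMA4B, the member with the largest increase, holds none in these letters. The windows also differ in base composition, with 46.4% G and C in SEMA3E, 61.2% in EPHA5 and 72.0% in SEMA4B.
SEMA3E: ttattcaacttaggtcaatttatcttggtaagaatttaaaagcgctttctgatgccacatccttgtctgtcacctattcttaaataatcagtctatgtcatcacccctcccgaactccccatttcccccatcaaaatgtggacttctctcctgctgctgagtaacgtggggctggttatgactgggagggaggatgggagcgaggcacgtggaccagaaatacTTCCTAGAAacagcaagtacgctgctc
EPHA5: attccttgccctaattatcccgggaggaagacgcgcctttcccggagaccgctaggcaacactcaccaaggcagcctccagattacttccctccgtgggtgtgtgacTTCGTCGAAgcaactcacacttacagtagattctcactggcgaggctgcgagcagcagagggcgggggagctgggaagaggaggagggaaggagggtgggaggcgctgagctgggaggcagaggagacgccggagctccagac
SEMA4B: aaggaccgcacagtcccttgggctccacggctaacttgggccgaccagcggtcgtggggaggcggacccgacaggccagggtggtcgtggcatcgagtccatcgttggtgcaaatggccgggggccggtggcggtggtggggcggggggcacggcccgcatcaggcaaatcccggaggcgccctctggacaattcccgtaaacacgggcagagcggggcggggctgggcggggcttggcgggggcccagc

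Neuropilins act with vascular growth factors and their receptors, and 3 of 14 measured genes of that list (21.4%) were called, all higher. Over the array 4.14% were called and 2.60% called higher. The list was chosen with earlier results of these data known, so its share is not that of an independent set. KDR, the main signaling receptor of VEGFA, averaged 10.96 ± 0.09 in hOSM and 7.58 ± 0.08 in hC (SD, n = 3 each) and rose 10.4-fold (log2 fold change 3.38, limma adjusted p = 0.000105). Its ligand VEGFA averaged 14.73 ± 0.10 in hOSM and 12.95 ± 0.10 in hC and rose 3.45-fold (limma adjusted p = 0.000924). VEGFC, a ligand of NRP2, averaged 13.74 ± 0.09 in hOSM and 12.66 ± 0.08 in hC and rose 2.11-fold (limma adjusted p = 0.00489). The median of this list was 0.10. KDR and neuropilins are also endothelial genes. Of 8 endothelial markers 1 was called, against 4.14% of the array, the transcription factor gene ERG (3.80-fold higher). By the adjusted p alone 4 of the 8 passed, against 19.7% of the array, with ERG and TIE1 higher and VWF and CLDN5 lower. ESAM, well above the guide, averaged 10.90 in hOSM and 11.26 in hC without passing (limma adjusted p = 0.183). The mean log2 signal over the 8 markers ranged from 5.90 to 6.12 over the hOSM arrays and from 5.80 to 5.97 over the hC arrays, and PECAM1, CDH5, TIE1, TEK and CLDN5 lay below the background guide in both lines.

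Genes that act downstream of Eph receptors and plexins were counted in the same way, from lists also chosen with earlier results known. Of 32 measured Eph and ephrin effectors, limma called 0, against 4.14% of the array. At an unadjusted p under 0.05 there were 6 of the 32, against 6205 of all 21448 transcript clusters. Without the set in the model 0 were called. The median log2 fold change of these effectors was −0.003. By the adjusted p alone 4 of these 32 (12.5%) passed, 2 in each direction, against 19.7% of the array. Of 39 semaphorin and plexin effectors, 1 was called (2.56%, against 4.14% of the array), L1CAM, an adhesion molecule that associates with NRP1 in SEMA3A signaling. It averaged 6.02 ± 0.28 in hOSM and 7.17 ± 0.29 in hC (SD, n = 3 each) and fell by 1.15 in log2 signal (limma adjusted p = 0.0238). By the adjusted p alone 13 of these 39 (33.3%) passed, 8 higher and 5 lower, against 19.7% of the array, and their median log2 fold change was 0.05. Besides L1CAM, those furthest from 0 were the kinase gene LIMK2 (−0.95), the exchange factor gene ARHGEF28 (−0.94), DPYSL2 (−0.89), which encodes a collapsin response mediator, and the small GTPase gene MRAS (0.85, below the guide in both lines). Netrins, slits and related guidance genes, a comparable set of ligands and receptors, had 2 called genes of 24 (8.33%, against 4.14% of the array), with a median log2 fold change of 0.04. By the adjusted p alone 8 of the 24 (33.3%) passed, 5 higher and 3 lower, against 19.7% of the array. The arrays of both lines did not overlap for 14 of 24 (58.3%), near the 50.0% of all transcript clusters. NTN4, a laminin-binding netrin, fell by 1.57 in log2 signal (limma adjusted p = 0.0350), and the netrin receptor gene UNC5C rose 2.28-fold (limma adjusted p = 0.00527) with signals below the guide in both lines.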

How the data were processed

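Per the labels, the authors processed the Human Clariom S arrays in the Transcriptome Analysis Console 4.0 with RMA and deposited the resulting log2 signals. For the library version and genome build, not given in the sources used here, nothing was assumed, and RefSeq served only for gene order and promoters. The 6 array medians lay between 6.82 and 6.85, and precision is limited by there being 3 arrays a line. Symbols came from the platform table (17709 transcript clusters with 1 symbol, 3739 without). Differences were tested on these values across all 21448 transcript clusters with limma 3.58.1 (R 4.3.3, lmFit and eBayes), with the set as a block because the lines were grown at the same time, the labels give both the same set numbers and the values of a set are mirror images. This leaves 2 residual degrees of freedom. The fit was tested on simulated data. Alternatives were no block, leaving out each set, quantile normalization, median centring, leaving out the lowest 33.3% by mean signal, trend and robust eBayes, and other thresholds. Named in full were called members, then those passing 1 threshold. Partner and marker lists came from general knowledge. Members and lists were chosen with earlier results of these data known, and the look at neighboring genes was added after the values were seen. Markers of leukocytes, nerve and glia, fibroblasts and luminal cells were checked as well.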

Additional observations from a re-analysis of the deposited data

How the results depend on the processing

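The 7 called members were called under every alternative but 2, leaving out set 2 or set 3, where SEMA3E, NRP2 and PLXNA1 did not pass and SEMA4B, SEMA6B, SEMA3A and EPHA5 did. Without the set as a block the same 7 members were called, as were 893 transcript clusters over the array. By the adjusted p alone, 22 of the 48 members passed in that fit, as did 10235 of the 21448 transcript clusters. That fit counts 4 residual degrees of freedom although the set means hardly vary, so its p-values are too small and the larger count adds no support. With no fold limit 15 members passed, 9 higher and 6 lower, with 2 ephrins, 4 Eph receptors, 5 semaphorins, 2 plexins and 2 neuropilins. Over the array 4217 transcript clusters (19.7%) passed. Leaving out each set in turn gave 5 to 8 called members, 2 to 4 higher, 2 to 4 lower, 1 to 2 Eph receptors, 0 to 1 plexins and 0 to 1 neuropilins. SEMA3D was called in addition without set 1, SEMA4C without set 2 and EPHA7 without set 3. Of the 15 members passing the adjusted p, 5 to 8 still passed with a set left out, when 1 residual degree of freedom remains. No log2 fold change of these 15 changed sign under any alternative. The next brightest transcript cluster was not run, since no member had another. Arrays without detection calls limit what can be said of the 21 members below the background guide.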

Other observations

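3 further Eph receptor genes are on the array that were not in the list of 50. EPHA6, EPHA8 and EPHA10 averaged 5.43, 4.25 and 4.14 in MDA-MB-231-hOSM and 5.69, 4.35 and 4.49 in MDA-MB-231-hC, below the background guide, with log2 fold changes of −0.26, −0.09 and −0.35. None was called by limma (adjusted p = 0.495, 0.766 and 0.133).

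Markers of other cell types were checked because several guidance genes are typical of nerve or blood cells. Of 7 leukocyte, 7 nerve and glia, 5 fibroblast and 4 luminal markers limma called 0, against 4.14% of the array. At an unadjusted p under 0.05 there were 2, 4, 3 and 1, against 6205 of all 21448 transcript clusters. Without the set in the model 0 were called. By the adjusted p alone 3 nerve and glia markers passed, against 19.7% of the array. SYT1 was lower (10.65 in hOSM and 11.59 in hC, limma adjusted p = 0.0108). SNAP25 (0.51 higher in log2 signal, limma adjusted p = 0.0431) and STMN2 (0.64 higher, limma adjusted p = 0.0723) both lay below the guide. MS4A1 (0.39 higher, limma adjusted p = 0.0951) and CSF1R (0.44 higher, limma adjusted p = 0.0927) passed among leukocyte markers. MS4A1 lay below the guide in both lines, and CSF1R lay near it, with 5.87 in hOSM and 5.44 in hC. CD68 averaged 12.60 in hOSM and 12.29 in hC without passing, and PTPRC averaged 4.94 in hOSM and 5.07 in hC, below the guide. PDGFRB was the fibroblast marker and GATA3 the luminal marker that passed, both lower, with PDGFRB below the guide in both lines. A list of 6 genes typical of MDA-MB-231 cells holds mesenchymal genes and the epithelial keratin genes KRT8 and KRT18. The 2 called, against 4.14% of the array, were KRT8 (2.01-fold higher) and KRT18 (2.12-fold higher). CD44 was 1.64-fold higher (limma adjusted p = 0.0175) and under the fold limit. AXL, with 13.63 in hOSM and 14.50 in hC, was lower by the adjusted p but under the fold limit. VIM and CAV1 did not pass.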
